A study of Mus musculus with 8 samples.

Results

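The immunity-related GTPases (IRG) described here are Irgm1, Irgm2, Igtp, Iigp1 and Ifi47, taken as every probe set that the platform annotation assigns to 1 of these 5 symbols. They gave 6 of 12422 probe sets, and 5 of 8251 named genes, since Iigp1 has 2 probe sets and each other gene 1. The arrays also carry IRG sequence on a probe set with several gene symbols, which is not named or counted here. All 6 entered every test, with no filter on low values. The cells were CD8+ dendritic cells from the spleen, a subset that takes up dead cells and presents their antigens to T cells. They came from female DBA/2J mice aged 60 days, and in all groups the mice had been given Flt3-L, which makes dendritic cells more numerous, at 10 µg for 9 days. The purified cells were cultured for 4 hours with interferon gamma of the mouse (IFN-γ) at 200 U/ml or without it in medium, and likewise for 16 hours, with 2 arrays in each of the 4 groups.

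IRG proteins are GTP-binding proteins that mouse cells make in response to interferons and that defend the cell from within. Effector members load onto the membrane of the vacuole that holds a parasite such as Toxoplasma or a bacterium such as Chlamydia, and break it open. Regulator members sit on the membranes of the cell's own organelles and hold the effectors inactive there. The regulators, Irgm1, Irgm2 and Igtp (also called Irgm3), carry a methionine in the nucleotide-binding loop where the effectors Iigp1 (Irga6) and Ifi47 (Irgd) carry the usual lysine, and the classes are called GMS and GKS after these residues. IFN-γ signals through the kinases Jak1 and Jak2, and promoters of genes that respond to it often hold gamma-activated sequences (GAS) or interferon-stimulated response elements (ISRE), the second of which Irf1 binds.

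In RefSeq's annotation of assembly GRCm38.p6, Irgm1, Ifi47, Igtp and Irgm2 lie on chromosome 11. Igtp and Irgm2 are direct neighbours, with 0 protein-coding genes between their starts, and 7 lie between those of Irgm1 and Ifi47. The 250 bases before the annotated start are shown for the 3 regulators because each window holds letters of at least one of these elements, printed in capitals. The sequences are RefSeq's, of GRCm38.p6, each on the gene's own strand, from chr11:48871421-48871670 (minus strand) for Irgm1, chr11:58214727-58214976 (plus) for Irgm2 and chr11:58199306-58199555 (plus) for Igtp.
Irgm1: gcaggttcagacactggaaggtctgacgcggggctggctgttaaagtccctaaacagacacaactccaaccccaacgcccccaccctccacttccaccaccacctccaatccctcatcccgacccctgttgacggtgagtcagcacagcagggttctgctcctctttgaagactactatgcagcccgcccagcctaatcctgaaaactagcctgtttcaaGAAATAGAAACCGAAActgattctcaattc
Irgm2: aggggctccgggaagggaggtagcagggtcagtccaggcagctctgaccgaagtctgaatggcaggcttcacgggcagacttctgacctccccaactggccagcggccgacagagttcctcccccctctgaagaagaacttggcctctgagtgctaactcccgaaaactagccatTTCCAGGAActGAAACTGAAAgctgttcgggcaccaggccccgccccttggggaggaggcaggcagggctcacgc
Igtp: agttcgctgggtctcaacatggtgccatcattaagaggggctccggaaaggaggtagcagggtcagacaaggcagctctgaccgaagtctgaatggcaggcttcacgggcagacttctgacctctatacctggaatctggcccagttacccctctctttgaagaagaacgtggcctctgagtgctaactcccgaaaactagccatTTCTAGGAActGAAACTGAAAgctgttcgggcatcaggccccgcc

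The letters searched on both strands were GAAA, any 2 bases and GAAA again for the ISRE, and TTCNNNGAA, which reads the same on both strands, for GAS. In Igtp the GAS match began 45 bases and the ISRE match 34 bases before the start. In Irgm2 they began 75 and 64 bases before it, in the same order and with the same spacing. The Igtp and Irgm2 windows could be aligned over 220 columns with 88.2% identical bases, against 52.6% for Irgm1 and Igtp. Irgm1 had 2 overlapping ISRE matches, which began 30 and 24 bases before the start, and 0 GAS matches. The window of Ifi47 held neither motif, and no promoter of Iigp1 is shown. Of 32851 promoter windows of the same length in the table, 2.98% held the ISRE letters, 7.02% the GAS letters and 0.332% both. These are matches of letters and not shown to be binding sites.

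Values are intensities per probe set that the authors deposited, given here on the log2 scale, so that a difference of 1 is a doubling, and levels of different probe sets are not comparable. Unspecific signal was read from 15 antisense control probe sets, whose median intensity per array lay between 44.9 and 61.2, and every IRG value was above it on its own array. Irgm1 in medium came closest, at 1.44 and 1.40 times the control median on its lower array at 4 and 16 hours. Of 11 measured markers of CD8+ dendritic cells, only Zbtb46 was at or below the antisense controls on every array. The summed intensity of the list, most of it from H2-Aa and Cd74, lay between 12896 and 14169.2 on all 8 arrays, while 1 marker was called lower at 16 than at 4 hours in medium and 1 with IFN-γ, or 4 each with the block. Cd8a read 8.74 to 9.08 on the log2 scale and Itgax 6.13 to 6.51. Some markers of other cell types also read above the controls on all arrays. S100a8, of neutrophils and monocytes, read 10.25 to 10.71, Cd79b, of B cells, 9.52 to 10.07 and Thy1, of T cells, 8.72 to 9.37. Others, such as Ncr1 of NK cells and Ly6g of neutrophils, were at or below the controls on every array. How pure the cells were was not tested. Whether separate mice or cultures lie behind a group's 2 arrays is not stated, so p-values reflect no more than how far these arrays lie apart, which may be technical spread. In such bulk samples, more RNA per cell and more cells of a type that makes it cannot be told apart.

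**Figure D1:**
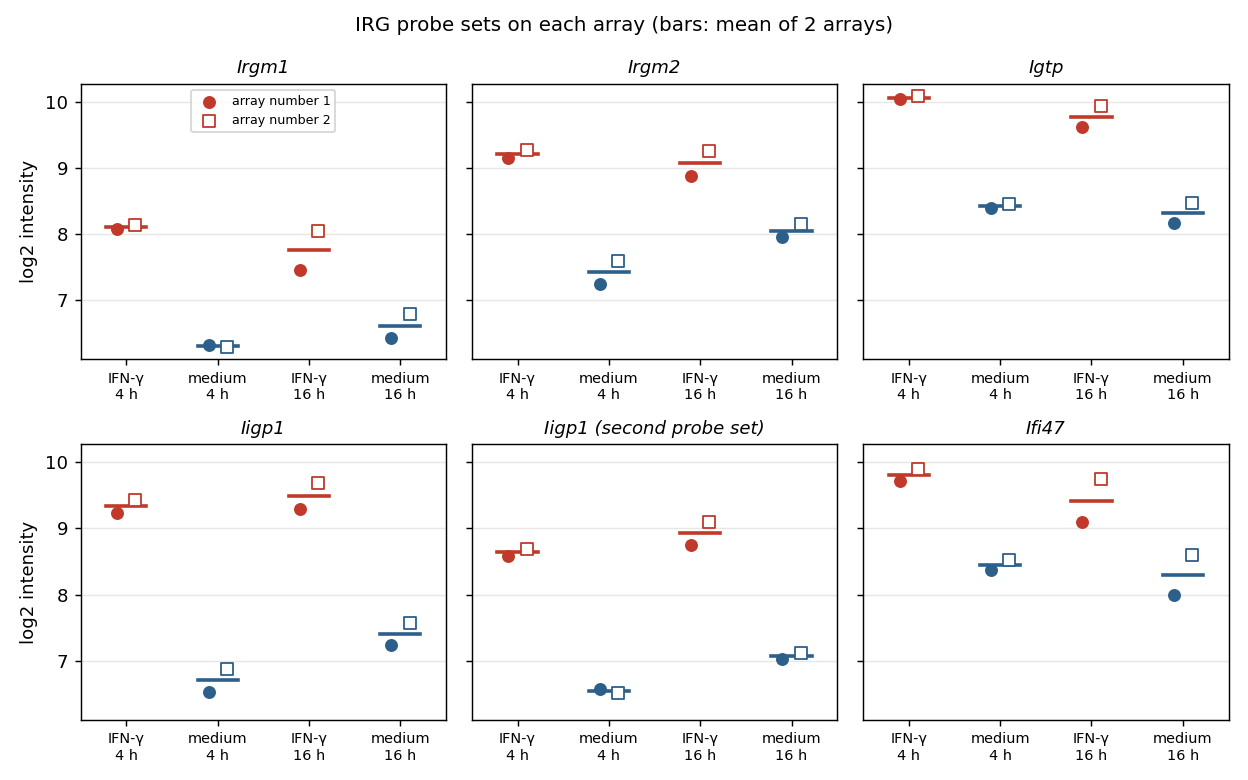
Log2 intensity of the 6 IRG probe sets (1 panel each) on the 8 arrays, by group along the horizontal axis; circles are array number 1, squares array number 2, and bars the mean of 2 arrays. In each panel both IFN-γ arrays of a time lie above both medium arrays of that time, and at 16 hours array 1 lies below array 2.

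After 4 hours, IRG genes of both classes were higher with IFN-γ. By limma with Benjamini-Hochberg adjustment over all 12422 probe sets, 4 of 5 genes passed at an adjusted p under 0.05, and all 5 did with the replicate number as a block, while 0.258% of all probe sets were called higher without the block and 1.09% with it. On all 5 genes the IFN-γ arrays lay above the medium arrays without overlap, as did 15.4% of all probe sets. The median log2 difference of the 5 was 1.79, against -0.01 over all probe sets.

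Iigp1, an effector that loads onto Toxoplasma vacuoles, had the largest rise of the 5. Its brighter probe set read 9.24 and 9.43 with IFN-γ, against 6.53 and 6.88 in medium. Both treated arrays stood far above both controls, with a log2 difference of 2.63 (SE 0.18, 95% confidence interval 2.22 to 3.04, adjusted p = 0.000303), which is 6.20-fold and the second largest rise, rank 2 of 12422. Its other probe set, designed from another sequence record and of a kind whose probes may match several members of a sequence family, read 8.58 and 8.69 with IFN-γ, against 6.57 and 6.52 in medium. It also rose, by 2.10 (SE 0.13, adjusted p = 0.000278), or 4.28-fold. In medium at 4 hours the brighter probe set came as low as 1.67 times the antisense control median and the other 1.72 times. The size of both rises is therefore uncertain.

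Ifi47, the other effector, read 9.72 and 9.89 with IFN-γ at 4 hours, against 8.37 and 8.52 in medium. The groups did not overlap, and the difference of 1.36 (SE 0.24, interval 0.83 to 1.90) had an adjusted p of 0.0704, or 0.000894 with the block. Within the arrays of the same number the difference was 1.35 for number 1 and 1.37 for number 2.

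The 3 regulators rose by similar amounts at 4 hours. Irgm1, which governs autophagy and the survival of blood cells under IFN-γ, read 8.07 and 8.14 with IFN-γ, against 6.32 and 6.30 in medium. That is a difference of 1.80 (SE 0.19, interval 1.37 to 2.22, adjusted p = 0.00496). In medium Irgm1 came as low as 1.44 times the antisense control median at 4 hours and 1.40 times at 16 hours. The size of its differences is therefore uncertain. Irgm2, which is found at the Golgi apparatus, read 9.15 and 9.27 with IFN-γ, against 7.24 and 7.59 in medium. It rose by 1.79 (SE 0.17, interval 1.42 to 2.17, adjusted p = 0.00239), so that both genes were 3.47-fold higher. Igtp, which sits on the endoplasmic reticulum and lipid droplets and is needed for resistance to Toxoplasma, read 10.04 and 10.08 with IFN-γ, against 8.40 and 8.46 in medium. It rose by 1.63 (SE 0.14, interval 1.31 to 1.95, adjusted p = 0.00165), or 3.10-fold.

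The call of Irgm1 at 4 hours was lost without any 1 of the 4 arrays of the comparison, with adjusted p-values of 0.0552 to 0.0803, while Irgm2, Igtp and Iigp1 were called whichever array was left out. The Actb 3' to 5' signal ratio, which reflects how intact and fully labelled the RNA was, stood at 1.47 and 1.65 with IFN-γ at 4 hours, against 2.04 and 2.20 in medium; its part in these differences was not tested.

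**Figure D2:**
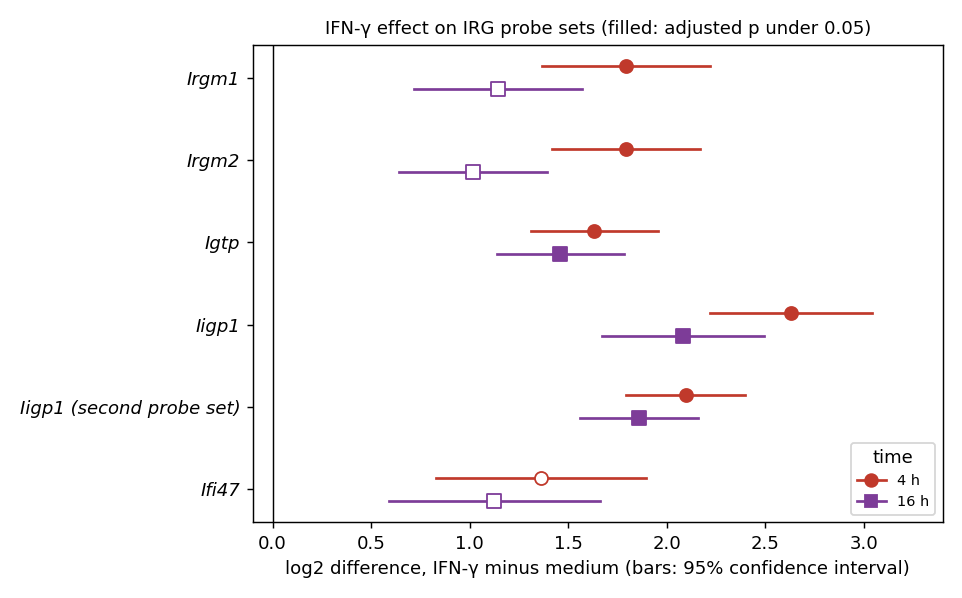
Log2 difference between IFN-γ and medium (horizontal axis) for the 6 IRG probe sets (vertical axis) at 4 hours (circles) and 16 hours (squares), with 95% confidence intervals from limma; filled symbols passed at an adjusted p under 0.05. Differences run from 1.02 for Irgm2 at 16 hours to 2.63 for Iigp1 at 4 hours, and every interval lies above 0.

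After 16 hours, Iigp1 and Igtp were higher with IFN-γ, and the other 3 genes passed only under some settings. Igtp was not called in a fit of only the groups compared (adjusted p = 0.0595). Without the block 2 of 5 genes were called and with it all 5, against 0.161% and 0.411% of all probe sets called higher. The groups again did not overlap for any of the 5, as for 9.1% of all probe sets on the higher side. The median log2 difference of the 5 was 1.14, against -0.00 over all probe sets.

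Iigp1 read 9.29 and 9.69 with IFN-γ at 16 hours, against 7.24 and 7.57 in medium. It rose by 2.08 (SE 0.18, interval 1.67 to 2.49, adjusted p = 0.00197), which is 4.24-fold. Its other probe set read 8.76 and 9.10 with IFN-γ, against 7.02 and 7.12 in medium, and rose by 1.86 (SE 0.13, adjusted p = 0.00052). Ifi47 read 9.09 and 9.75 with IFN-γ, against 8.00 and 8.60 in medium. The arrays of each group were far apart, and the difference of 1.13 (SE 0.24, interval 0.59 to 1.66) had an adjusted p of 0.175, or 0.00338 with the block. Within arrays of the same number it was 1.10 and 1.16.

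Among the regulators, Igtp read 9.62 and 9.93 with IFN-γ at 16 hours, against 8.16 and 8.46 in medium. It rose by 1.46 (SE 0.14, interval 1.14 to 1.78, adjusted p = 0.0043), or 2.75-fold, and by 1.45 and 1.47 within arrays of the same number. Irgm1 read 7.46 and 8.04 with IFN-γ, against 6.42 and 6.79 in medium. The difference was 1.14 (SE 0.19, interval 0.72 to 1.57), with an adjusted p of 0.0592, or 0.00326 with the block. Irgm2 read 8.87 and 9.26 with IFN-γ, against 7.95 and 8.15 in medium. Its difference was 1.02 (SE 0.17, interval 0.64 to 1.39), with an adjusted p of 0.0579, or 0.000764 with the block.

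IFN-γ array 1 at 16 hours held the lower value of its group for all 6 IRG probe sets. Without it the 16-hour differences of Irgm1, Irgm2 and Ifi47 were 1.44 (adjusted p = 0.00883), 1.21 (adjusted p = 0.0273) and 1.46 (adjusted p = 0.0414), so that all 5 genes were called. Without IFN-γ array 2 they were 0.85, 0.82 and 0.79, and 2 genes were called. The difference between the arrays of a group had an SD over all probe sets of 0.311 with IFN-γ at 16 hours and 0.241 in medium at 16 hours, against 0.176 and 0.170 at 4 hours.

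The difference between IFN-γ and medium was smaller at 16 than at 4 hours for all 5 genes, but no test of this difference passed. Of all probe sets, 0% were called without the block and 0.242% with it, and 0 of the 5 genes either way; at an unadjusted p under 0.05 there were 2 of 5 genes without and 3 of 5 with the block, against 2.84% and 6.23% of all probe sets. Irgm2 had a difference of effects, 16 minus 4 hours, of -0.78 (SE 0.24, interval -1.31 to -0.25, adjusted p = 0.977, or 0.0686 with the block). For Irgm1 it was -0.65 (interval -1.25 to -0.05, adjusted p = 1, or 0.362 with the block). Iigp1 had -0.55 (interval -1.13 to 0.03, adjusted p = 1), and -0.24 on its other probe set. The intervals of Igtp, -0.63 to 0.28 around -0.17, and of Ifi47, -0.99 to 0.52 around -0.24, extend on both sides of 0 and do not show that these effects were alike at both times.

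Each difference of effects combines a change with time under IFN-γ and one in medium. In medium, Iigp1 and Irgm2 differed most between 16 and 4 hours, by 0.71 (SE 0.18, adjusted p = 0.0674, or 0.00107 with the block) and 0.63 (SE 0.17, adjusted p = 0.071, or 0.00269 with the block). The other probe set of Iigp1 differed by 0.53 (adjusted p = 0.0612, and 0.00957 under the block). Irgm1 differed by 0.30 (adjusted p = 0.493), Igtp by -0.12 and Ifi47 by -0.15. Thus 0 of 5 genes were called higher without the block and 2 with it, against 1.71% and 4.52% of all probe sets. At 16 hours both medium arrays lay above both 4-hour arrays for Irgm1, Irgm2 and Iigp1, as did 30.8% of all probe sets, while those of Igtp and Ifi47 overlapped.

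With IFN-γ, no IRG gene passed between 16 and 4 hours, with or without the block, where 0.821% of all probe sets were called higher and 1.3% lower without it, and 10.1% either way with it. At an unadjusted p under 0.05, 0 of 5 passed without the block and 3 of 5 with it, against 13.7% and 24.0% of all probe sets. Iigp1 differed by 0.16 (interval -0.26 to 0.57) and Irgm2 by -0.14 (interval -0.52 to 0.23). Irgm1 differed by -0.35 (adjusted p = 0.466), Igtp by -0.29 (adjusted p = 0.426) and Ifi47 by -0.38 (adjusted p = 0.535). Both 16-hour arrays lay below both 4-hour arrays for Irgm1 and Igtp, as did 17.7% of all probe sets. The other probe set of Iigp1 lay above without overlap, as did 21.6%, with a difference of 0.29 (adjusted p = 0.381).

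The order of the group means followed from these values. For Irgm1, Irgm2, Igtp and Ifi47 IFN-γ at 4 hours was highest and IFN-γ at 16 hours next, and for Iigp1 these were exchanged, a step that passed the test for no gene. The next step, to the higher of the medium groups, was at 16 hours for Irgm1, Irgm2 and Iigp1 and at 4 hours for Igtp and Ifi47. The lowest step, between the medium groups, passed for no gene without the block, and with it for Irgm2 and Iigp1.

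Markers of some other cell types moved with culture time. Without the block, 0 of 7 T cell, 0 of 3 NK cell and 0 of 3 plasmacytoid dendritic cell markers were called in medium or with IFN-γ. Among 6 neutrophil and monocyte markers, 1 was higher at 16 hours in each comparison. Of 13 macrophage markers measured, 10 were higher and 1 lower at 16 than at 4 hours in medium. There, 1.71% of all probe sets were called higher and 2.57% lower. With IFN-γ, where 0.821% of all probe sets were called higher and 1.3% lower, 9 macrophage markers were higher and 1 lower. Their summed intensity was 3440.3 to 4282.15 with IFN-γ and 4720.27 to 5535.51 in medium at 16 hours, against 1410.34 to 1416.32 with IFN-γ and 1850.93 to 1899.61 in medium at 4 hours; Mrc1 and Marco were at or below the antisense controls on every array. The sum was thus lower with IFN-γ than in medium at each time. Much of it came from Lyz2, which read 8.67 and 8.69 with IFN-γ at 4 hours, against 9.45 and 9.56 in medium. At 16 hours Lyz2 read 10.09 and 10.58, against 10.92 and 11.31. C1qb, at 7.88 and 8.15 against 7.73 and 7.71, and C1qc went the other way at 16 hours. Over the 13 macrophage markers the median log2 difference was -0.10 at 4 hours and -0.27 at 16 hours. Without the block, 0 of these markers were called lower with IFN-γ at either time. With it, 2 were at 4 hours and 3 at 16 hours. Of 6 B cell markers, 0 were called in medium and 2 were higher with IFN-γ at 16 than at 4 hours, or 2 and 6 with the block. With the block, 4.52% of all probe sets were called higher in medium and 10.1% in either direction with IFN-γ. Of 3 erythroid markers, 2 were lower at 16 hours in each comparison, Hba-a1 and Hbb-b2. Of these, Hbb-b2 was at or below the antisense controls on every array. The part of the markers of all these cell types in the differences of the IRG genes, between times or between IFN-γ and medium, was not tested.

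**Figure D3:**
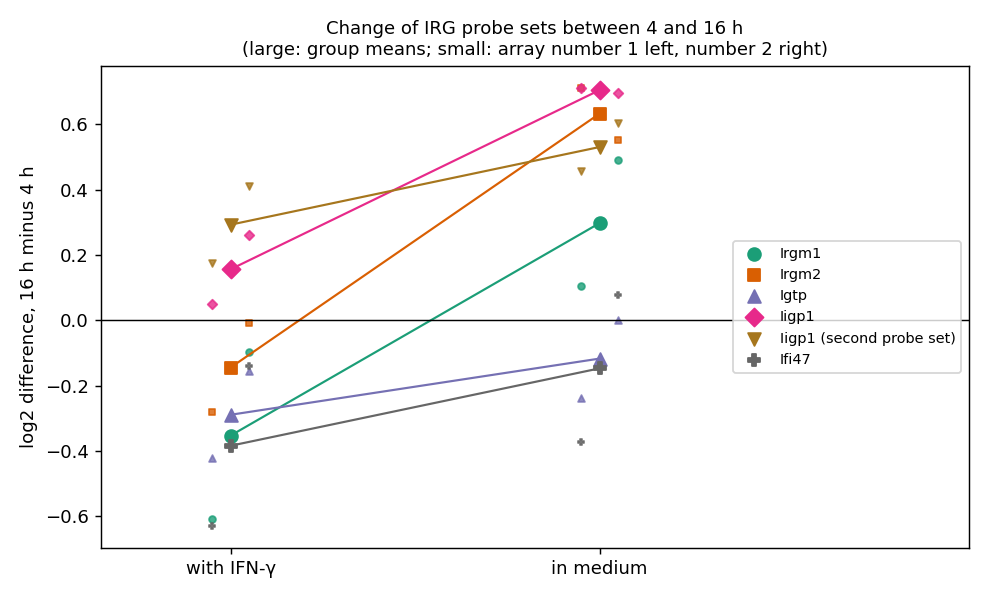
Log2 difference between 16 and 4 hours (vertical axis) for the 6 IRG probe sets with IFN-γ (left) and in medium (right); large symbols are differences of group means, small ones those within arrays number 1 (left of each) and number 2 (right). Each line is higher on the medium side, and Irgm1 and Irgm2 lie below 0 with IFN-γ and above 0 in medium.

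The IRG genes varied together over the arrays. Pearson's r over the 8 arrays, which share the treatment groups, lay between 0.900 for Irgm2 and Ifi47 and 0.987 for Irgm2 and Iigp1 among the brighter probe sets, and was 0.994 for the probe sets of Iigp1. These values describe 8 arrays in 4 groups and were not tested. In every group array 1 read below array 2 on all probe sets, except for Irgm1 and the other Iigp1 probe set in medium at 4 hours.

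Among 752 other genes that varied by an SD of at least 0.3 over the arrays, the 8 most like the mean of the centred and scaled IRG genes were, in order, Gbp7, Nampt, Gbp3, Samhd1, Pml, Ifit1, Gbp2b and Cnn3, with r between 0.975 and 0.958 over 8 arrays. Gbp7, Gbp3 and Gbp2b encode guanylate-binding proteins, a second family of interferon-induced GTPases. Samhd1 encodes an enzyme that degrades deoxynucleotides, Pml the organiser of nuclear bodies, Nampt an enzyme of NAD synthesis, Ifit1 an interferon-induced protein that binds viral RNA and Cnn3 an actin-binding calponin. At 4 hours Cnn3 rose by 1.79 (adjusted p = 0.00414), Nampt by 1.02 (adjusted p = 0.0408) and Samhd1 by 0.79 (adjusted p = 0.0188), while Ifit1 differed by 0.70 (adjusted p = 0.215, and 0.011 under the block). At 16 hours Ifit1 differed by 0.40 (adjusted p = 1) and Pml by 0.63 (adjusted p = 0.112, or 0.0217 with the block). Gbp2b and Cnn3 were below the antisense controls on at least 1 array, so that the size of their differences is uncertain.

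**Figure D4:**
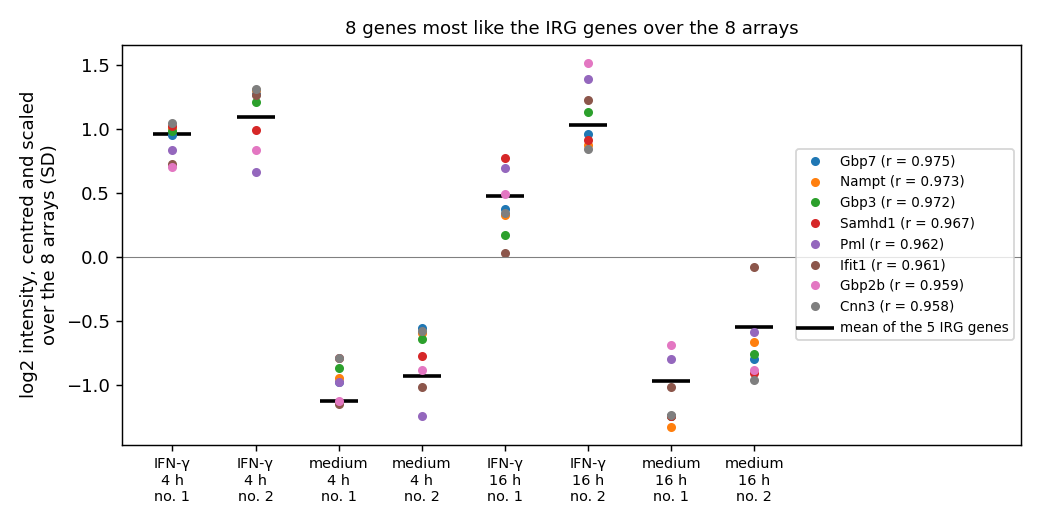
Log2 intensity, centred and scaled over the 8 arrays, of the 8 genes most like the IRG genes (coloured points) and the mean of the 5 IRG genes (black bars), by array along the horizontal axis. All points of the 4 IFN-γ arrays lie above 0 and all of the 4 medium arrays below 0, and most genes are lower on array 1 with IFN-γ at 16 hours than on the other IFN-γ arrays.

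Chromosomal neighbours of the IRG genes with a named probe set did not pass the test. Genes read only by a probe set with several symbols were not looked at. The 3 nearest genes with a named probe set on each side of each member, other members aside, were 18 in all, of which 0 were called at 4 or 16 hours with or without the block by limma. Of all probe sets, only 0.258% were called higher at 4 hours and 0.161% at 16 hours, or 1.09% and 0.411% with the block. A count of 0 among 18 genes is therefore not particular to the neighbours. The neighbours' log2 differences between IFN-γ and medium lay between -0.15 and 0.18 at 4 hours and between -0.26 and 0.31 at 16 hours. Trim41, the nearest measured gene before Irgm1, differed by -0.15 at 4 hours, and Isoc1, the nearest before Iigp1 on chromosome 18, by 0.18. Gemin5, the nearest before Igtp, differed by -0.06. Of the 18 neighbours 10, Gemin5 among them, were below the antisense controls on every array, so a change in them may not be seen.

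Other genes of the pathway were read from lists of IFN-γ signalling, related GTPases, autophagy and other defence, with each gene represented by its brightest probe set. Of all probe sets, 0.258% were called higher at 4 hours and 0.161% at 16 hours. With the block the shares were 1.09% and 0.411%. Among 6 measured guanylate-binding and Mx GTPases, 3 rose at 4 hours and 3 at 16 hours, or 4 at each time with the block. Gbp7 rose by 1.62 (adjusted p = 0.0137) and Gbp2 by 1.28 (adjusted p = 0.00502) at 4 hours, and by 1.45 (adjusted p = 0.032) and 1.65 (adjusted p = 0.00152) at 16 hours. Gbp3 differed by 1.33 at 4 hours (adjusted p = 0.0515, and 0.000745 under the block). The list's median was 1.31 at both times. Gbp2b rose by 1.42 at 4 hours (adjusted p = 0.0464), and its rise at 16 hours was 1.44 (adjusted p = 0.0465).

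Of 14 measured genes of the IFN-γ receptor, its kinases, transcription factors and inhibitors, 2 rose at 4 hours and 3 at 16 hours, or 3 at each time with the block. Irf1, which binds ISRE elements such as those searched above, rose by 0.84 (adjusted p = 0.0123) and 0.96 (adjusted p = 0.0075). Socs1, which inhibits the Jak kinases, rose by 1.39 at 4 hours (adjusted p = 0.0141) and by 1.51 at 16 hours (adjusted p = 0.0137). Irf8 differed by 0.61 at 4 hours (adjusted p = 0.0612, and 0.00892 under the block) and rose by 0.82 at 16 hours (adjusted p = 0.0158). The median of the list was 0.12 at both times. Ptpn11 was below the antisense controls on every array.

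IRG regulators act beside the autophagy proteins that attach ubiquitin-like tags to vacuoles. Of 14 measured genes of autophagy, tag conjugation and the targeting of vacuoles by ubiquitin, 1 rose at 4 hours and 0 passed at 16 hours. The one was Trim21, a ubiquitin ligase and antibody receptor of the cytosol, by 0.79 (adjusted p = 0.0188), and it differed by 0.41 at 16 hours (adjusted p = 0.452). Its call at 4 hours rests on the brightest probe set. With the mean of its probe sets, Trim21 differed by 0.55 at 4 hours and was not called. The conjugation genes differed little, with Gabarapl1 at -0.20 and -0.19 and Atg5, of the conjugation complex, at -0.31 at 16 hours (adjusted p = 1 for each). The list's median was -0.06 at 4 hours and -0.05 at 16 hours.

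Of 11 other effectors of defence within the cell, 0 passed at 4 or 16 hours by limma without the block, and 3 and 1 were higher with it. Nos2 and Eif2ak2 were below the antisense controls on every array, and Ido1 reached at most 1.16 times their median. A change in these genes may not be seen. Casp4, a caspase that senses bacterial lipopolysaccharide, differed by 0.89 at 4 hours (adjusted p = 0.111, and 0.00152 under the block) and 0.68 at 16 hours (adjusted p = 0.388, and 0.00892 under the block). Ifi204, a DNA sensor, differed by 0.86 at 4 hours (adjusted p = 0.106, and 0.00687 under the block) on its brightest probe set. That probe set is of the kind whose probes may match several members of a sequence family. With the mean of its probe sets, Ifi204 differed by 0.41 at 4 hours. Ncf1, a subunit of the phagocyte oxidase, differed by 0.55 at 4 hours (adjusted p = 0.307, and 0.0382 under the block). Cybb, the oxidase's catalytic subunit, differed by -0.61 at 16 hours (adjusted p = 0.931, and 0.0554 under the block). The median was 0.26 at 4 hours and -0.03 at 16 hours.

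**Figure D5:**
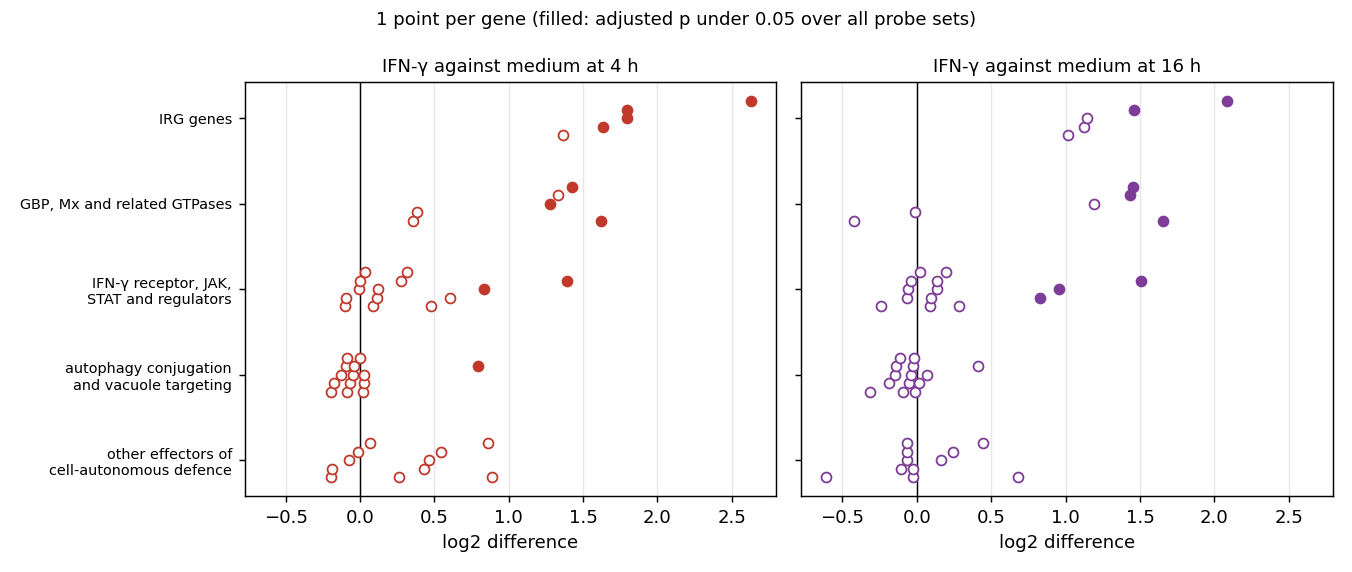
Log2 difference between IFN-γ and medium (horizontal axis) for each measured gene of the IRG group and of 4 other lists (rows), at 4 hours (left) and 16 hours (right); filled points passed at an adjusted p under 0.05. The 5 IRG genes lie between 1.36 and 2.63 at 4 hours and between 1.02 and 2.08 at 16 hours, while most genes of the autophagy list lie near 0.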

How the data were processed

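RNA was hybridised to 8 Affymetrix MG-U74Av2 arrays, 1 per sample. The authors deposited 1 intensity per probe set and array, with RMA named in the submitters' processing notes and its version not given in the sources used here. The values run from 2.65 to 12523.46 and are taken as linear. Here log2 was computed without a pseudocount or further normalization. The platform has 12488 probe sets, of which 66 array controls were excluded. Gene names came from the platform annotation, updated by gene number through RefSeq (GRCm38.p6): 10833 probe sets had 1 symbol, of which 10817 matched, 396 had several and 1193 were unlisted here. A probe set with several symbols is not named, and of 13 further IRG family symbols listed, 0 had a probe set of their own. A gene with several probe sets was read from its brightest.

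limma 3.58.1 (R 4.3.3) was fitted to 4 group means over all 8 arrays, with moderated two-sided tests adjusted by Benjamini-Hochberg over 12422 probe sets in each of 5 comparisons, called at 0.05, and tested on simulated data. The differences between array 1 and array 2 correlated between groups with r of 0.367 to 0.740 in all 6 pairs of groups. The main fit, which gave the SEs, intervals and figures, does not take up this pairing. A second fit with the number as a block treats the numbers as a pairing, which rests on this correlation alone. Values from the fit with the block are printed where they change a call. The members, the lists and the rule for named genes were chosen with earlier results of these data known. That rule names all members, up to 4 genes of smallest p per list and comparison, the 3 nearest measured neighbours on each side of a member and the 8 genes of highest r. Alternatives tried were quantile normalization, median centring, a pseudocount, a filter on dim probe sets, another prior, a stricter threshold, the mean of a gene's probe sets, fewer samples in the fit, the block and leaving out each array.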

Additional observations from a re-analysis of the deposited data

Results flagged for a closer look

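Irgm1 was singled out because its change with time ran in opposite directions in the treatment groups on every array. With IFN-γ both 16-hour arrays, at 7.46 and 8.04, lay below both 4-hour arrays, at 8.07 and 8.14, while in medium both 16-hour arrays, at 6.42 and 6.79, lay above both 4-hour arrays, at 6.32 and 6.30. The difference between these changes was -0.65 on the log2 scale, and its test did not pass (adjusted p = 1 by limma, or 0.362 with the replicate number as a block). Over the alternatives tried it ran from -0.94 to -0.36. Of all probe sets, 30.8% lay higher at 16 hours in medium without overlap, and 17.7% lay lower with IFN-γ. The share that did both was not computed. With IFN-γ the change of Irgm1 was -0.35, and -0.06 without array 1 at 16 hours.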

How the results depend on the processing

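At 16 hours the count of IRG genes called between IFN-γ and medium, 2 of 5, was 4 with quantile normalization, 4 with a trended and robust prior, 1 in a fit of only the groups compared and, treating the replicate number as a block, 5, and it ran from 2 to 5 when 1 array was left out. At 4 hours it was 4, or 5 with quantile normalization, in a fit of only the groups compared and with the block, and it also moved with 1 array left out. Between 16 and 4 hours in medium the count of 0 was 2 with quantile normalization, 2 in a fit of only the groups compared and 2 with the block, with 0 to 2 when 1 array was left out. Over the alternatives no IRG difference between IFN-γ and medium changed sign. Signs that turned, each on leaving out 1 array, were of differences that passed no test. Over these fits the time difference in medium ran from -0.27 to 0.0319 for Igtp and from -0.45 to 0.15 for Ifi47. With IFN-γ it ran from -0.34 to 0.0490 for Irgm2 and from -0.0441 to 0.36 for Iigp1, and the difference of effects of Ifi47 from -0.57 to 0.0943. Between IFN-γ and medium, Sqstm1 ran from -0.27 to 0.0196 at 4 hours, and at 16 hours Becn1 from -0.33 to 0.0426 and Nos2 from -0.0086 to 0.49. For the named genes of the other lists, the alternatives gave 511 differences between IFN-γ and medium. Of these, 414 kept the main result, 64 lost a call, 30 gained one and 3 changed sign. Beyond the calls printed above, the block changed no IRG call. For the 8 most similar genes, r stayed at 0.939 or above with another scaling or 1 array left out, alternatives chosen after seeing the data. The cause of these changes was not tested, and 2 arrays a group limit the precision.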
